A study of Mus musculus with 4 samples.

Results

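The 2 samples of non-infarcted left ventricle, out of 4 samples in the study, were examined for where DNA was modified in the ventricle wall away from an infarct. Both came from C57BL/6 mice aged 8 weeks, 3 days after myocardial infarction, and the tissue taken was non-infarcted left ventricle. One sample was wild-type. The other was Neil3-null (Neil3-/-) and lacked NEIL3, one of the glycosylases that start base excision repair at oxidized DNA bases. Neither is therefore a healthy or sham-operated heart. There was 1 sample per genotype, and the labels used here do not say whether animals were pooled, so no difference between the genotypes was taken and no replicate error between animals exists. The Neil3-null sample served as a second, separate map: a gene was placed at an extreme only where both samples placed it there.

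Cytosines followed by guanine are methylated over most of a mammalian genome, and 5-methylcytosine (5mC) is oxidized to 5-hydroxymethylcytosine (5hmC) by the TET enzymes. CpG islands, the CpG-rich stretches at the starts of most housekeeping and developmental genes, usually stay free of methylation, whereas many germline genes carry methylated starts in somatic tissue. In muscle and brain, 5hmC is known to be carried in the bodies of transcribed genes.

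The assay, HMST-seq, reads tags next to CCGG. HpaII cuts the motif only when its inner cytosine carries no modification, and MspI cuts it whether or not that cytosine is modified. MspI after glucosylation no longer cuts sites with 5hmC; this library is called C+mC here. HpaII/MspI and C+mC/MspI are the summed HpaII or C+mC signal over the sites of a region, as a percent of the summed MspI signal. A low HpaII/MspI marks a region with more modification of either kind, and a low C+mC/MspI one with more 5hmC. The deposited libraries have similar totals whatever they measure, so values are relative, exceed 100% at many genes, and are read as ranks within a sample.

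To show what the assay reads, the 300 bp around the starts of 4 genes are given, from RefSeq on GRCm38.p6, plus strand, with every CCGG in capitals. Eef2 encodes a translation elongation factor and Rbm4b an RNA-binding protein, and both had high HpaII/MspI around their starts. With a window of 2 kb the end of Eef2 was at a mean percentile of 35.7 over 10 sites. The end is then chosen again by its number of sites, so this may not be the start. Slc25a31 encodes an ADP/ATP carrier of germ cells and Sohlh2 a germ-cell transcription factor, and both had low values. The 4 were chosen after their values were seen.
Eef2, chr10:81176381-81176680: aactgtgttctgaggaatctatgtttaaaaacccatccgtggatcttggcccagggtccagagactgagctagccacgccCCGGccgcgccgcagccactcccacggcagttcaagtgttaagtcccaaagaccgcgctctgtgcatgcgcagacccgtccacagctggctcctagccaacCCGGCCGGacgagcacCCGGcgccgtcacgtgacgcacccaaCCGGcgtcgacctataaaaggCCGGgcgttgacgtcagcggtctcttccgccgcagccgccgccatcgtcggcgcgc
Rbm4b, chr19:4756275-4756574: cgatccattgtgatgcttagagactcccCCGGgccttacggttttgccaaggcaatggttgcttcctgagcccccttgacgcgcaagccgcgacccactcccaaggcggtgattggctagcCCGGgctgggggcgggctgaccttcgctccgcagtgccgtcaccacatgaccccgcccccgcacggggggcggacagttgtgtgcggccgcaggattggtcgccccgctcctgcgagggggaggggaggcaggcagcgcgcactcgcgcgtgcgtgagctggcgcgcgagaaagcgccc
Slc25a31, chr3:40708621-40708920: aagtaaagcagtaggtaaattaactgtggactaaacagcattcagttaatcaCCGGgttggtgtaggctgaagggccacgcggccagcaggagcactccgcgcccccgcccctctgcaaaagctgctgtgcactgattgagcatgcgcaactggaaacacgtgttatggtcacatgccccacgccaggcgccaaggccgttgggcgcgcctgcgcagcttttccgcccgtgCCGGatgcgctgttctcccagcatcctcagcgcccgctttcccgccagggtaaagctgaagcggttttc
Sohlh2, chr3:55181794-55182093: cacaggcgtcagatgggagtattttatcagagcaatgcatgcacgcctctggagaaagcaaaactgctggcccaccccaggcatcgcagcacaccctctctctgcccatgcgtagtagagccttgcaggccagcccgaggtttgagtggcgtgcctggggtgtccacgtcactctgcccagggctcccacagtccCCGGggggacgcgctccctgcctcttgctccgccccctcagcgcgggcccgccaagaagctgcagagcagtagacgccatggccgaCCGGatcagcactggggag
Eef2 holds 6 CCGG in this window and 3 of them were listed and used, against 2 of 2 in Rbm4b, 2 of 2 in Slc25a31 and 1 of 2 in Sohlh2. The ratio of observed to expected CpG, a measure of how CpG-rich a sequence is, was 1.11 for Eef2, 0.880 for Rbm4b, 0.826 for Slc25a31 and 0.545 for Sohlh2. By this ratio Slc25a31 was close to Rbm4b, though its window held 22 CpG against 32 in Rbm4b.

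At the site 6 bp before the start of Eef2, HpaII signal was 135 and MspI signal 15.3 in the wild-type sample, and 146 and 11.98 in the Neil3-null sample. At the site 56 bp before the start of Rbm4b, HpaII was 94.3 and MspI 12.3 in the wild-type sample, and 91.6 and 13.6 in the Neil3-null sample. Near both starts the HpaII signal stood far above the MspI signal. The order was the opposite 19 bp before the start of Slc25a31, with HpaII 54.0 and MspI 168.1 in the wild-type sample and 60.6 and 148 in the Neil3-null sample. It was the opposite again 55 bp before the start of Sohlh2, where HpaII was 32.3 and MspI 124 in the wild-type sample and 24.9 and 110 in the Neil3-null sample. There the C+mC signal was 159 in the wild-type sample and 219 in the Neil3-null sample, in neither lower than MspI.

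**Figure D1:**
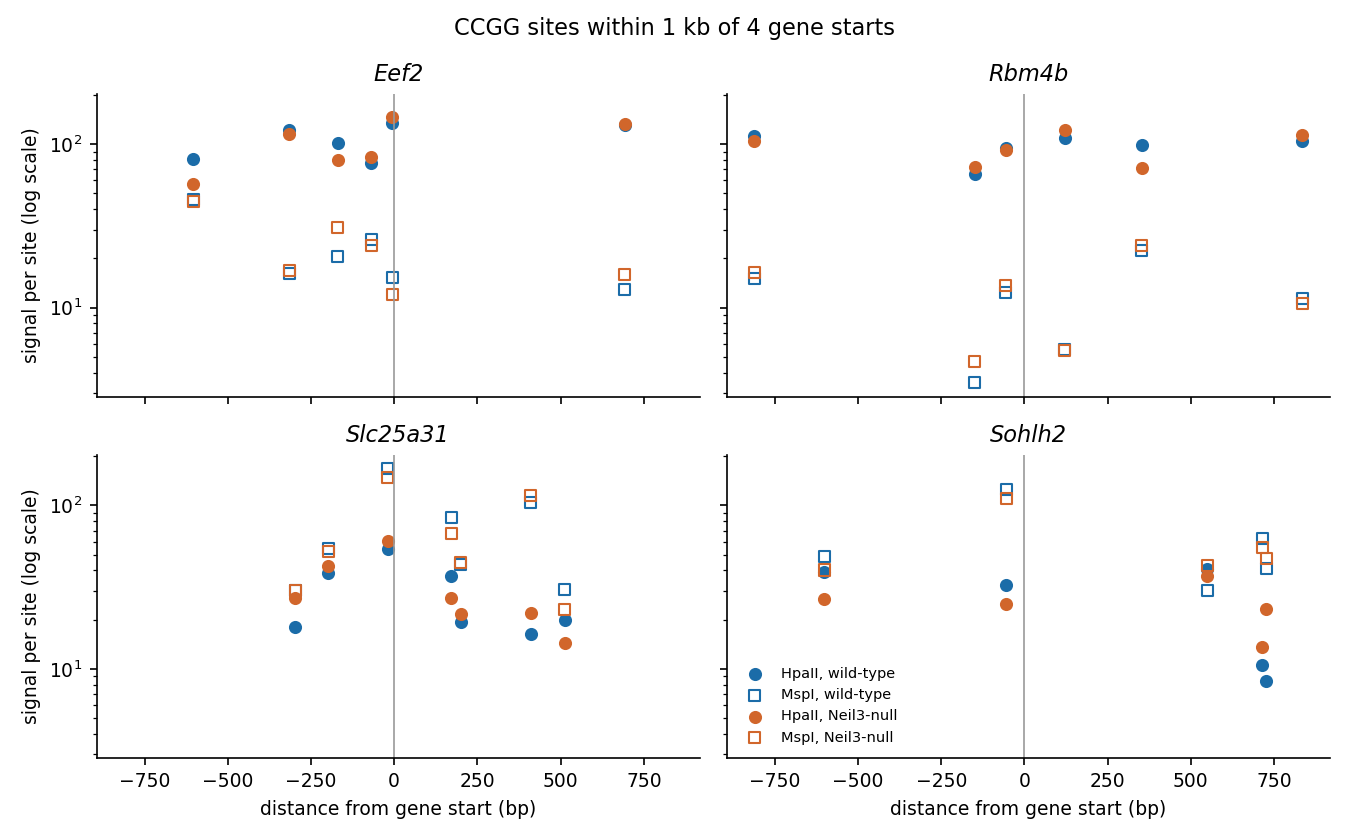
HpaII (filled circles) and MspI (open squares) signal per CCGG site, on a log scale, against distance from the annotated gene start in bp, for Eef2, Rbm4b, Slc25a31 and Sohlh2 in the wild-type (blue) and Neil3-null (orange) samples. At Eef2 and Rbm4b every plotted HpaII value lies above its MspI value, while at Slc25a31 every one lies below.

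The files listed 1079784 sites in the wild-type and 1060295 in the Neil3-null sample, and 951083 autosomal sites listed in both were used. Over 20665 autosomal protein-coding genes, 4245 gene ends and 13221 gene bodies held at least 5 used sites, and 6385 genes had neither. A gene end is the annotated end with more sites within 1 kb on either side, and a body runs between the 2 ends without the outer 1 kb on each side. How many tags lie behind a value cannot be read from the files. One library stood apart: across sites, the log2 C+mC signal of the wild-type sample correlated with its own MspI signal at 0.572 and with HpaII at 0.540, against 0.724 and 0.480 in the Neil3-null sample. Sites of 1 library are not independent, and the part of this difference in the C+mC ranks was not tested.

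CCGG sites were least modified around gene starts. Over 10549 genes of at least 10 kb with known strand, HpaII/MspI rose from 102% between 5.0 and 4.5 kb before the start to 225% in the last 0.5 kb before it, in the wild-type sample, and from 106% to 225% in the Neil3-null sample. It returned to 102% and 106% by 4.5 to 5.0 kb inside the gene. C+mC/MspI followed with a smaller peak, 150% and 133% in the last 0.5 kb before the start. MspI signal per site went from 44.8 to 46.7 over this stretch in the wild-type sample and from 43.1 to 45.3 in the Neil3-null sample, and stood at 55.1 and 53.3 in the first 0.5 kb inside the gene.

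The other side of the gene showed no peak. Between 5.0 and 4.5 kb before the gene finish HpaII/MspI was 78.7% in the wild-type and 82.5% in the Neil3-null sample, and it passed to 97.0% and 100.3% in the first 0.5 kb after the finish. The interior of genes near their finish was thus more modified than the flank. C+mC/MspI changed little there, from 96.3% to 98.5% and from 97.4% to 98.1%.

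**Figure D2:**
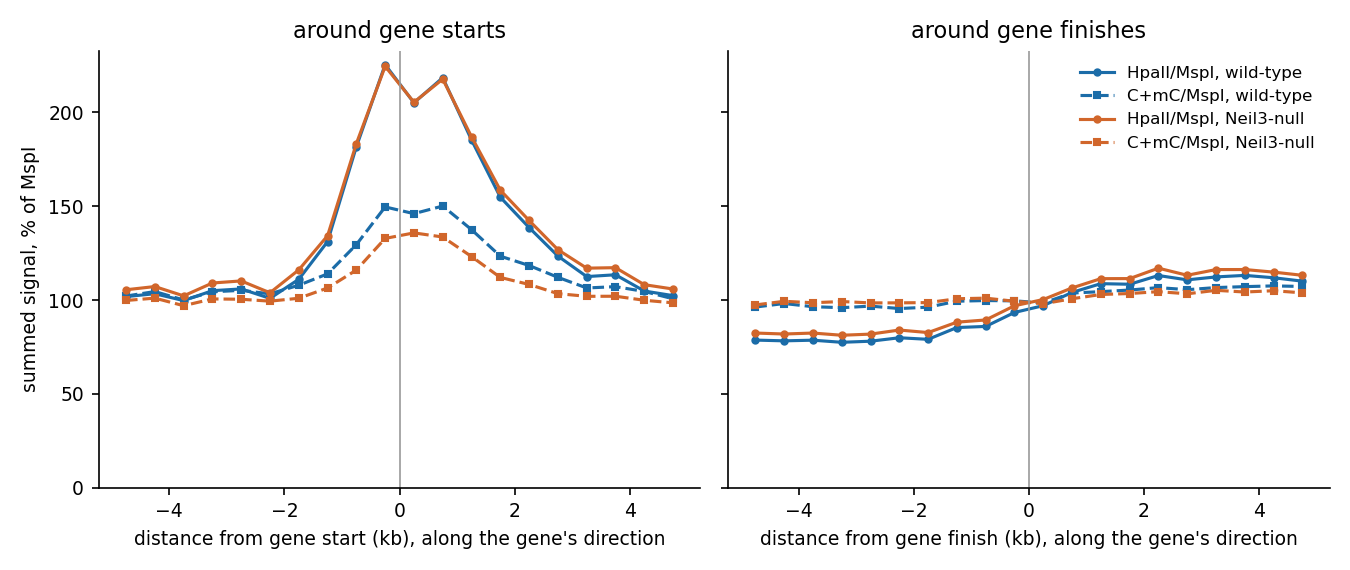
HpaII/MspI (solid) and C+mC/MspI (dashed), as summed signal in percent of MspI in 0.5 kb steps, against distance in kb from gene starts (left) and gene finishes (right), in the wild-type (blue) and Neil3-null (orange) samples. HpaII/MspI reaches 225% beside the start in both samples and stays below 100% inside the gene ahead of the finish.

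Among 1854 genes with at least 3 sites at each end, the median HpaII/MspI was 213% at the start and 97.8% at the finish in the wild-type sample, and 212% and 101% in the Neil3-null sample. The start was the higher of the pair in both samples in 1474 genes (79.5%), and the finish in 294. For C+mC/MspI the start was higher in both samples in 1200 genes (64.7%), and the finish in 400.

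Crowded sites were also less modified. HpaII/MspI was 85.0% in the wild-type and 89.1% in the Neil3-null sample where no other used site lay within 500 bp, and 153% and 150% where 5 or more did. This held over 5 kb from any annotated end of a protein-coding gene, where the same classes gave 81.0% and 85.0% against 121% and 118%. Such sites include the interiors of long genes. Between autosomes the range was narrow, from 92.8% on chromosome 16 to 105% on chromosome 11 in the wild-type sample, and from 96.2% to 108% on the same chromosomes in the Neil3-null sample.

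Starts with many CCGG motifs were thinly covered. Of the CCGG motifs in RefSeq promoters holding 1 such motif, 82.5% were listed in both samples, against 13.8% in promoters holding 5 or more. What is said of gene starts therefore rests on a minority of the CCGG in starts that hold many.

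Genes kept their order between the samples. Across genes, the rank correlation of HpaII/MspI between the samples was 0.948 over 4245 gene ends and 0.973 over 13221 gene bodies, and that of C+mC/MspI was 0.822 and 0.886. Genes are not independent replicates, and both samples share assay and sites. Of all gene ends measured, 160 (3.77%) were in the highest 5% of HpaII/MspI in both samples and 191 (4.5%) in the lowest 5%. These were 75.5% and 90.1% of each sample's own 5%. For bodies 568 (4.3%) were highest and 510 (3.86%) lowest in both. By C+mC/MspI, 125 ends (2.94%) were highest and 111 (2.61%) lowest, and 447 bodies (3.38%) were highest and 400 (3.03%) lowest. In the wild-type sample the lowest 5% of ends closed at 71.5%, with the next gene at 72.1%, and the highest opened at 361.3%, with the next gene below at 361.2%. The members at these borders thus differ little from genes just outside.

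**Figure D3:**
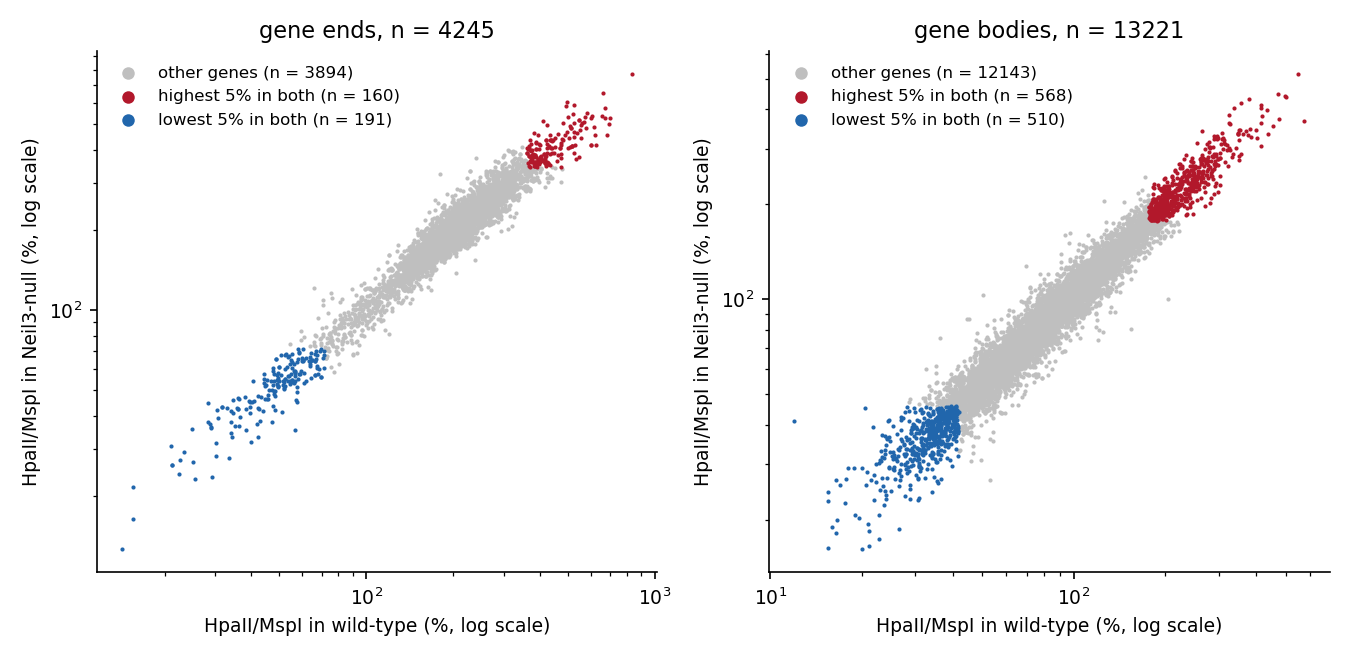
HpaII/MspI in percent in the wild-type sample (horizontal) against the Neil3-null sample (vertical), both on log scales, for 4245 gene ends (left) and 13221 gene bodies (right); each point is a gene. Genes in the highest 5% in both samples are red (160 ends, 568 bodies) and those in the lowest 5% in both are blue (191 ends, 510 bodies).

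The gene ends with the highest HpaII/MspI were mostly starts. Of those with known strand, 122 were starts and 10 finishes (7.58% finishes, against 16.8% over all ends measured). Rbm4b stood highest, at 835 ± 179% in the wild-type and 770 ± 220% in the Neil3-null sample, where ± is the standard error over the CCGG sites of the gene (6 sites, chr19:4755641-4757287, at the start). Rfk, which encodes riboflavin kinase, reached 663 ± 205% and 656 ± 138% at its start (5 sites). Gabra2, a GABA-A receptor subunit gene, reached 675 ± 123% and 574 ± 61.1% at its start (5 sites, chr5:71094869-71096078).

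These ends were set apart by little MspI signal rather than much HpaII signal. Their median HpaII signal per site was 107 in the wild-type and 104 in the Neil3-null sample, against 110 and 106 over all ends. Their median MspI signal per site was 23.8 and 24.6, against 53.6 and 51.8. With HpaII over C+mC in place of HpaII over MspI, 33 of the 160 (20.6%) stayed in the highest 5% in both samples. Whether low MspI recovery at these sites set their rank was not tested.

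The gene ends with the lowest HpaII/MspI were mostly finishes. Of those with known strand 125 were finishes and 32 starts, so that 79.6% were finishes. Their HpaII signal was low, with medians per site of 30.9 in the wild-type and 30.8 in the Neil3-null sample, and their MspI signal, at 63.1 and 61.0, was not. With HpaII over C+mC, 143 of the 191 (74.9%) stayed in the lowest 5%. Of the 28 low starts with a RefSeq promoter, the median observed to expected CpG was 0.282, against 0.809 over all ends with one.

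Exoc6b, which encodes a subunit of the exocyst that tethers secretory vesicles, had the lowest gene end in both samples. At its finish (5 sites, chr6:84617500-84619360) HpaII/MspI was 14.3 ± 3.65% in the wild-type and 12.6 ± 1.89% in the Neil3-null sample. The finish of Plcxd1, a gene of the phospholipase C X-domain family, followed with 15.5 ± 6.27% and 16.3 ± 4.60%. Noxo1, an NADPH oxidase organizer gene, and Tbl3 each have an end at the same place on chromosome 17 and were measured by the same 6 sites, at 21.2 ± 5.66% and 26.2 ± 5.68%.

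Exoc6b and Plcxd1 were also the lowest ends by the 5hmC-sensitive ratio, ranked by the mean percentile of both samples. C+mC/MspI at the Exoc6b finish was 38.1 ± 6.70% in the wild-type and 52.0 ± 6.46% in the Neil3-null sample. At the finish of Plcxd1 it was 43.8 ± 15.8% and 54.6 ± 11.4%. The next was a muscle gene: Tpm1, which encodes the thin-filament protein tropomyosin 1, had 42.3 ± 4.05% and 60.5 ± 9.87% at its finish (5 sites, chr9:67021765-67023586). Its HpaII/MspI there was 35.0 ± 4.83% and 36.6 ± 9.05%, whereas its annotated start, with 3 sites, ranked at a mean percentile of 76.5 among starts. Rbpj, the DNA-binding effector of Notch signalling, was among the lowest at its start, with C+mC/MspI of 50.8 ± 7.38% and 61.2 ± 9.79%. Of the 111 ends lowest by C+mC/MspI, 57 were also lowest by HpaII/MspI (51.4% of the 111 and 29.8% of the 191).

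At the high end of C+mC/MspI, 2 neighbours led. Ccdc151, a gene of ciliary dynein assembly, and Rgl3, a gene of the Ral GEF family, lie next to each other on chromosome 9 and were measured over overlapping stretches (chr9:21988992-21990508 and chr9:21988600-21990094). Ccdc151 had 513 ± 239% in the wild-type and 342 ± 114% in the Neil3-null sample at its finish. Rgl3 had 471 ± 256% and 340 ± 123% at its start. Tmem132e followed with 433 ± 93.3% and 326 ± 60.2%. The errors over sites were wide for the first pair. No gene end was at opposite extremes of the 2 ratios, which share the MspI signal as denominator.

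Genes for developmental transcription factors were frequent among the least modified bodies. Of 134 genes matched from a list of factors that pattern lineages other than the heart, 90 had a measured body, and 54 of the 90 (60.0%) were in the highest 5% of HpaII/MspI in both samples, against 4.3% of all bodies. None was in the lowest, against 3.86% of all bodies. Their median percentile was 96.4 in the wild-type and 96.8 in the Neil3-null sample. Barhl2, a homeobox factor of neurons, had 550 ± 109% and 515 ± 67.4% (5 sites, chr5:106453616-106457095). Phox2a, a homeobox factor of autonomic neurons, had 498 ± 246% and 439 ± 196%. En1, a homeobox factor of the midbrain and limb, had 575 ± 174% and 367 ± 106%. The list was not uniform: Vsx1, a retinal factor, had 70.9 ± 29.1% and 62.8 ± 30.6%, and Alx4, a craniofacial and limb factor, had 84.0 ± 12.8% and 85.6 ± 11.5%.

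The Hox clusters, which specify position along the body axis, were alike. Only 12 of 39 Hox genes had a measured body, and 10 of the 12 (83.3%) were in the highest 5%, against 4.3% of all bodies. Hoxb6 led with 470 ± 49.1% in the wild-type and 448 ± 88.9% in the Neil3-null sample, and Hoxc4 had 280 ± 46.7% and 304 ± 54.1%. The lowest, Hoxd11, still had 144 ± 30.2% and 151 ± 26.5%, and Hoxa10 had 158 ± 19.4% and 161 ± 20.2%. The 35 measured bodies of clustered protocadherins, neuronal adhesion genes that overlap and share sites, had median percentiles of 91.4 and 91.7. None was in either extreme, but 35 overlapping bodies are too few to tell this from the 4.3% (highest) and 3.86% (lowest) of all bodies.

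Factors that act in the heart stood in the same direction. Of 22 measured bodies of cardiac transcription factors, 7 (31.8%) were in the highest 5%, against 4.3% of all bodies, and none in the lowest, against 3.86%, with median percentiles of 89.8 in the wild-type and 91.5 in the Neil3-null sample. Isl1, a factor of cardiac progenitors, had 292 ± 82.3% and 275 ± 74.7%, and Irx4, a ventricular homeobox factor, had 291 ± 47.6% and 259 ± 38.0%. Zfpm2, the GATA cofactor also called FOG2, had 68.3 ± 7.41% and 72.1 ± 7.33%. Ppargc1a, a coactivator of mitochondrial biogenesis, stood in the middle with 87.9 ± 5.29% and 89.9 ± 5.12%.

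High bodies were short and rich in crowded sites. Their median gene length was 10.3 kb, against 32.4 kb over all bodies, and in the median high body 38.3% of sites had at least 2 others within 500 bp, against 11.4%. The lineage factor and Hox lists were short too, with medians of 10.8 kb and 10.2 kb. The cardiac factors were not: their median was 43.3 kb, and 14.7% of sites were crowded in this way in their median body. The part of length in the rank of these lists was not tested. Among genes under 10 kb, 36 of 50 genes of the 3 transcription factor lists (72.0%) were in the highest 5%, against 230 of 1340 other genes (17.2%). Between 20 and 50 kb the counts were 15 of 26 (57.7%) and 76 of 4356 (1.74%). Unlike at gene ends, HpaII signal was itself high in these bodies, with medians per site of 84.0 in the wild-type and 83.2 in the Neil3-null sample against 38.6 and 38.5, while MspI was 36.6 and 36.4 against 45.1 and 43.2. With HpaII over C+mC, 160 of the 568 (28.2%) stayed in the highest 5%, and the median percentile was 96.2 for Hox genes, 88.7 for the lineage factors and 91.3 for cardiac factors.

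**Figure D4:**
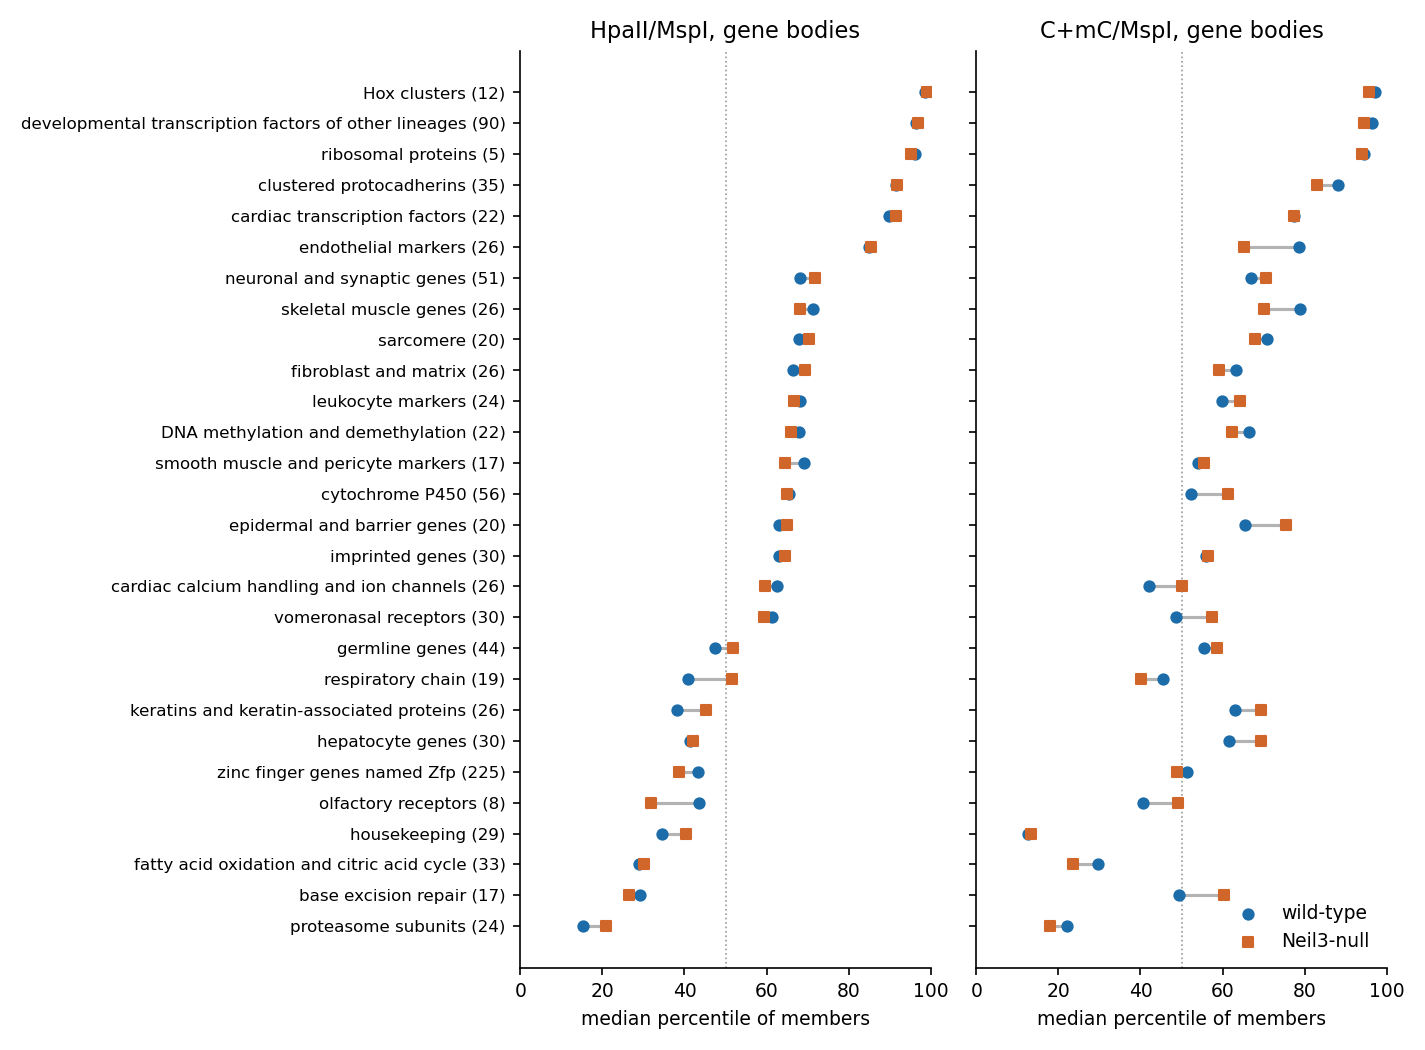
Median percentile of the measured members of 28 gene lists (number measured in brackets) among all gene bodies, by HpaII/MspI (left) and C+mC/MspI (right), in the wild-type (blue circles) and Neil3-null (orange squares) samples; the dotted line is the middle of all genes. Hox and lineage transcription factor genes lie at the top by both ratios, and proteasome, fatty acid oxidation and housekeeping genes lie low by both.

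By C+mC/MspI the same lists were high. Of the 90 lineage factor bodies 40 (44.4%) were in the highest 5%, and of the 12 Hox bodies 6, against 3.38% of all bodies. Barhl2 had 403 ± 110% in the wild-type and 287 ± 41.7% in the Neil3-null sample, and Nkx6-1, a homeobox factor of pancreas and motor neurons, had 371 ± 23.3% and 227 ± 45.9%. Limd2, a LIM-domain gene of no list, had 409 ± 117% and 288 ± 87.8%, and Nefm, a neurofilament gene, had 289 ± 52.8% and 269 ± 40.4%. Of the 447 bodies highest by C+mC/MspI, 281 were also highest by HpaII/MspI (62.9%).

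The 20 measured sarcomere bodies had median percentiles of 68.0 in the wild-type and 70.2 in the Neil3-null sample by HpaII/MspI, close to the 71.2 and 68.1 of 26 skeletal muscle genes that a ventricle does not chiefly express. Csrp3, a Z-disc protein gene, had 217 ± 35.5% and 194 ± 23.2%, and Myl2, the ventricular myosin light chain gene, had 207 ± 30.7% and 184 ± 30.4%. The lowest sarcomere members included Myom2, an M-band protein gene, with 72.4 ± 10.5% and 70.9 ± 9.87%. The start of Myl2 was low where its body was high, with 115 ± 52.5% and 87.4 ± 51.95% over 3 sites, at percentiles of 7.80 and 4.06 among starts. Gja1, which encodes the gap junction protein connexin 43, had 283 ± 66.2% and 273 ± 64.0%. The 26 measured bodies of the calcium handling and ion channel list had median percentiles of 62.4 in the wild-type and 59.7 in the Neil3-null sample. Of these 1 (3.85%) was in the highest 5%, near the 4.3% of all bodies, and none in the lowest, where 3.86% were. At gene ends Atp2a2, the calcium pump gene of the sarcoplasmic reticulum, had 509 ± 201% and 493 ± 132% over 5 sites at an end of unknown direction. Its MspI signal per site was low, 20.2 and 21.0, against medians of 53.6 and 51.8 over all ends. It was the 1 of 11 measured ends of its list in the highest 5%, against 3.77% of all ends. The median percentiles of those 11 ends were 29.1 and 21.4. Of the sarcomere bodies 3 of 20 were in the highest 5% and none in the lowest, and of the endothelial bodies 4 of 26 (15.4%) and none, where 4.3% and 3.86% of all bodies were. The median percentiles of the endothelial list were 85.0 and 85.4. Among its high members were Esam, an adhesion gene, with 289 ± 75.1% and 329 ± 89.8%, and Tal1, a transcription factor gene, with 280 ± 48.0% and 262 ± 41.1%.

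The tissue label cannot be checked by expression, since only DNA was measured. Of 10 cardiomyocyte marker genes, 6 had a measured body, with mean percentiles of HpaII/MspI from 36.2 to 96.5. Of 6 leukocyte marker genes, 6 had one, from 13.3 to 82.3. These ranges overlap, and the share of each cell type in the samples was not measured.

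Lists of genes that nearly every cell uses differed in their place. Of 24 measured proteasome bodies, 3 (12.5%) were in the lowest 5% of HpaII/MspI, against 3.86% of all bodies, and their median percentile was 15.2 in the wild-type and 20.9 in the Neil3-null sample. Psmc5, a subunit of the regulatory particle, had 24.6 ± 3.79% and 29.1 ± 6.46%, and Psma2, a subunit of the catalytic core, had 31.9 ± 16.0% and 34.5 ± 17.5%. Only 5 of 72 ribosomal protein genes had a measured body, and they stood at the other side: 3 of the 5 were in the highest 5% and none in the lowest, with median percentiles of 96.2 and 95.2. Rpl38, a large subunit protein gene, had 253 ± 71.2% and 232 ± 61.3%. The 33 measured bodies of fatty acid oxidation and the citric acid cycle, the main energy routes of the heart, had median percentiles of 28.9 and 30.2, with 2 (6.06%) in the lowest 5%, near the 3.86% of all bodies, and none in the highest, where 4.3% of all bodies were. With HpaII over C+mC the median percentiles were 34.03 for the proteasome and 42.8 for the energy list, nearer the middle. Acads, a short-chain acyl-CoA dehydrogenase gene, had 39.6 ± 12.002% and 39.2 ± 12.04%, and Sdha, the catalytic subunit gene of succinate dehydrogenase, had 39.2 ± 9.84% and 44.6 ± 14.4%. Idh2, the mitochondrial isocitrate dehydrogenase gene, was the highest of the energy list, with 129 ± 27.0% and 126 ± 22.5%.

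Genes of base excision repair, the pathway NEIL3 belongs to, had median percentiles of 29.2 and 26.6 over 17 measured bodies. Polb, the polymerase gene of the pathway, had 33.5 ± 11.01% in the wild-type and 34.8 ± 9.18% in the Neil3-null sample. Smug1, a uracil glycosylase gene, was at the other side with 226 ± 56.3% and 212 ± 49.3%. Of the 17, 1 (5.88%) was in each extreme, near the 4.3% and 3.86% of all bodies.

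Zinc finger genes were frequent among the most modified bodies. Of 225 measured bodies of genes named Zfp, 28 (12.4%) were in the lowest 5% of HpaII/MspI, against 3.86% of all bodies, and 10 (4.44%) in the highest, near the 4.3% of all bodies, with median percentiles of 43.3 and 38.7. The body of Zfp599 had 16.5 ± 9.43% in the wild-type and 18.1 ± 10.98% in the Neil3-null sample, among the lowest of all bodies. Zfp46 had 499 ± 114% and 436 ± 87.5%, among the highest. The lowest body of all by mean rank, that of Gtpbp6, was measured by the same 6 sites as the finish of Plcxd1 and is not a separate observation. Rad17, a checkpoint gene, had 20.01 ± 5.41% and 16.2 ± 5.35%.

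By C+mC/MspI the lowest median percentile of the lists belonged to housekeeping bodies. Of 29 measured, 5 (17.2%) were in the lowest 5% in both samples, against 3.03% of all bodies. In the highest 5% were 3 (10.3%), against 3.38% of all bodies. The median percentile was 12.7 in the wild-type and 13.3 in the Neil3-null sample. Canx, the calnexin gene of protein folding, had 33.6 ± 6.54% and 56.0 ± 10%, and Cltc, the clathrin heavy chain gene, had 47.9 ± 9.58% and 60.0 ± 8.94%. In Cltc HpaII/MspI was not low, at 108 ± 30.3% and 130 ± 36.4%. By HpaII/MspI the housekeeping list lay at percentiles of 34.6 and 40.3, and by HpaII over C+mC at 72.4. The place of the list by HpaII signal thus depended on the denominator. HpaII over C+mC divides by the library that was low here, so it cannot test the low place by C+mC/MspI.

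Fatty acid oxidation and citric acid cycle genes had 4 of 33 bodies (12.1%) in the lowest 5% of C+mC/MspI, against 3.03% of all bodies. None was in the highest 5%, where 3.38% of all bodies were. Their median percentiles were 29.6 in the wild-type and 23.6 in the Neil3-null sample. Hadhb, a subunit gene of the mitochondrial trifunctional protein, had 49.2 ± 8.88% and 51.3 ± 8.99%. Sucla2, a succinyl-CoA ligase gene, had 46.6 ± 8.88% and 58.8 ± 8.74%. Proteasome bodies had median percentiles of 22.2 and 17.9. Other lists lay high by the same ratio: the 20 measured sarcomere bodies had 70.7 and 68.0, and the 5 ribosomal protein bodies 94.3 and 93.9. Of the sarcomere bodies 2 were in the highest 5% and none in the lowest, where 3.38% and 3.03% of all bodies were. The lowest single bodies were those of Lamtor3, a lysosomal scaffold gene, with 27.2 ± 8.71% and 36.5 ± 9.32%, and of Zfp599, with 27.5 ± 4.91% and 37.8 ± 7.39%. Eed, a core subunit gene of Polycomb repressive complex 2, had 26.3 ± 8.54% and 48.0 ± 8.27%. Bodies low by C+mC/MspI were sparse in sites, with 0.276 sites per kb against 0.586 over all bodies. Their median length was 36.1 kb with an upper quartile of 59.3 kb, against 32.4 kb and 72.1 kb over all bodies. Only 109 of the 400 were also lowest by HpaII/MspI (27.3%).

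Few genes of tissue-restricted families had 5 sites at an end, so annotated starts with at least 3 sites within 1 kb were ranked as well, which gave 8045 genes. Of these 360 (4.47%) were in the lowest 5% of HpaII/MspI in both samples, and germline genes were frequent among them. Of 35 measured germline starts, 17 (48.6%) were in the lowest 5% and none in the highest, where 3.56% of all starts were. The median percentile was 5.08 in the wild-type and 4.54 in the Neil3-null sample. Syce3, a synaptonemal complex gene, had 14.8 ± 8.51% and 24.4 ± 11.6%, and Dpep3, a testis dipeptidase gene, had 17.9 ± 6.93% and 29.6 ± 9.04%. Nanos3, a germ cell RNA-binding factor gene, had 265 ± 75.2% and 200.2 ± 52.5%, and was the highest of the list with Mei4, a meiotic recombination gene, at 232 ± 96.5% and 228 ± 106%. Slc25a31 had 39.4 ± 7.18% and 44.8 ± 8.66%, and Sohlh2 42.6 ± 15.8% and 42.5 ± 12.1%, from the sites around the sequences shown above.

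Germline starts, low and other members together, had a higher observed to expected CpG than low starts as a whole. This difference was not tested, and the low germline starts were not summarized alone. Over 33 germline starts with a RefSeq promoter the median observed to expected CpG was 0.674, and 18 were above 0.6. Over all 317 low starts with a promoter it was 0.276, and 40 (12.6%) were above 0.6. Over all 7542 starts with a promoter it was 0.759, and 71.5% were above 0.6. Their C+mC/MspI was not as low: the germline list lay at median percentiles of 33.5 and 25.9 with 4 of 35 starts in the lowest 5% and 0 in the highest, where 2.81% and 2.71% of all starts were. The MspI signal of the germline starts, 53.9 and 51.1 per site, was near that of all starts, 48.8 and 47.2, and their HpaII signal, 50.9 and 50.03, was far below 110 and 105.

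Starts of other lists with many low members had few CpG. Of 22 measured olfactory receptor starts, 14 (63.6%) were in the lowest 5%, but 1100 such genes are listed and most had too few sites. Of 19 keratin and keratin-associated starts 9 (47.4%) were lowest, of 16 hepatocyte starts 5 (31.3%), and of 13 skeletal muscle starts 5 (38.5%). Median observed to expected CpG was 0.276 for olfactory receptors, 0.243 for keratins, 0.267 for hepatocyte genes and 0.204 for skeletal muscle genes. Fgb, the fibrinogen beta chain gene of the liver, had 19.3 ± 5.46% in the wild-type and 35.0 ± 3.72% in the Neil3-null sample. Pvalb, the parvalbumin gene of fast muscle, had 47.0 ± 25.8% and 33.9 ± 17.5%, and Myf5, a myogenic factor gene, had 76.2 ± 27.7% and 78.2 ± 30.6%. These lists were also low without MspI: with HpaII over C+mC the median percentile was 4.51 for germline, 4.63 for olfactory receptor, 8.48 for keratin, 3.85 for hepatocyte and 13.6 for skeletal muscle starts. Not every list with few CpG was low. Sarcomere starts had a median observed to expected CpG of 0.248 over 8 promoters. By HpaII/MspI the 9 measured had median percentiles of 56.3 and 45.1, against 14.4 and 11.4 for skeletal muscle starts. With HpaII over C+mC the sarcomere starts lay at 34.6.

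**Figure D5:**
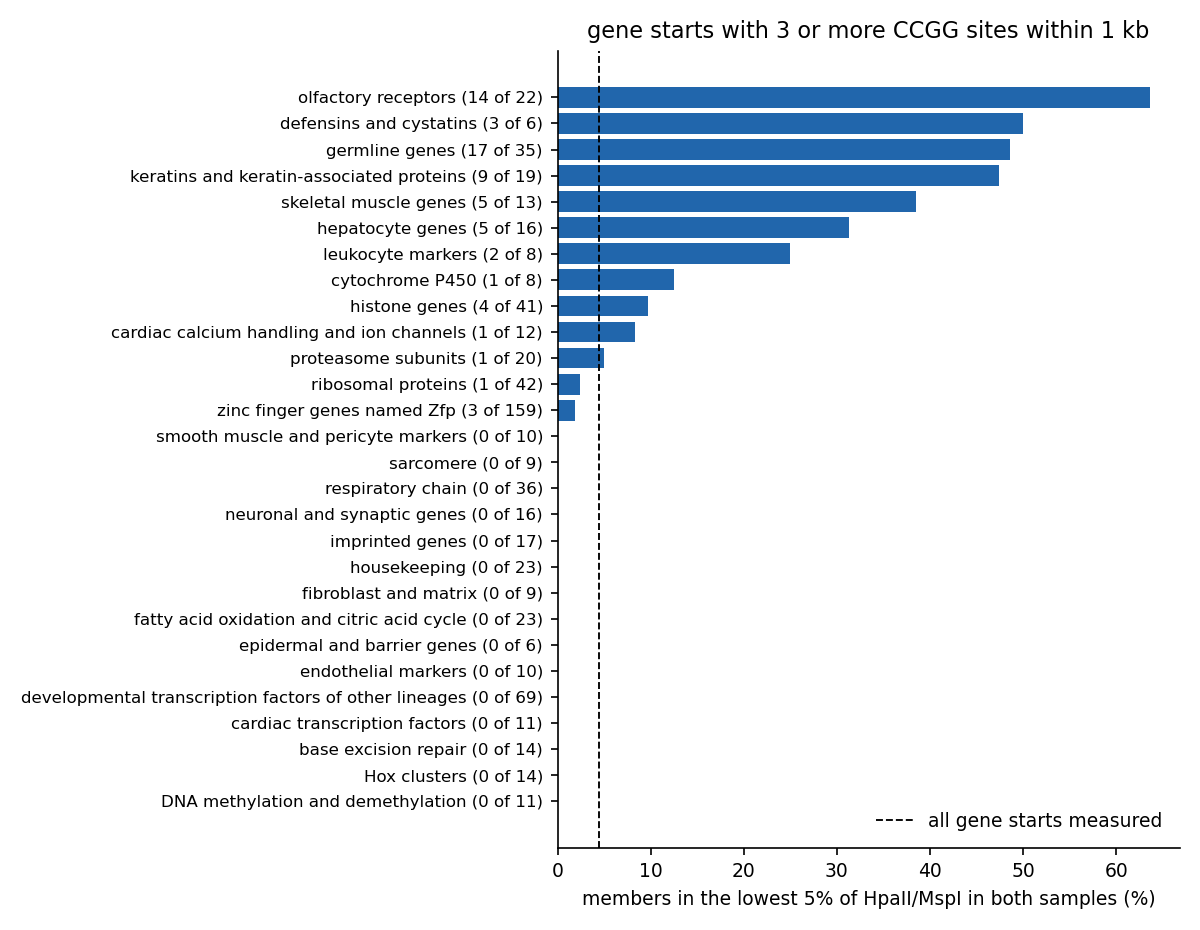
Percent of the measured members of each gene list whose start was in the lowest 5% of HpaII/MspI in both samples (bars, with the count of measured members beside each name); the dashed line is the 4.47% over all 8045 starts. The olfactory receptor, defensin and cystatin, germline and keratin lists lie between 47.4% and 63.6%, while Hox, lineage transcription factor, cardiac transcription factor and sarcomere lists have no member there.

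Several lists had no low start, but most are too small to tell this from the 4.47% of all starts. None of 9 sarcomere, 11 cardiac transcription factor, 36 respiratory chain, 23 fatty acid oxidation and citric acid cycle, 23 housekeeping, 14 Hox and 69 lineage factor starts was in the lowest 5%. Of 12 calcium handling and channel starts 1 was there: Slc8a1, the sodium-calcium exchanger gene, with 80.3 ± 33.5% in the wild-type and 79.9 ± 30.3% in the Neil3-null sample, over 3 sites at this annotated start. Of 8 leukocyte starts 2 were lowest. Elane, the neutrophil elastase gene, had 47.6 ± 21.8% and 52.9 ± 20.5%, and Cd68, a macrophage marker gene, had 73.6 ± 46.3% and 92.5 ± 59.1%. Cd68 lay at a mean percentile of 79.8 by HpaII over C+mC.

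Histone genes split. Of 41 measured starts, 7 (17.1%) were in the highest 5%, against 3.56% of all starts, and 4 (9.76%) in the lowest, against 4.47%. Both groups hold known classes: H4c6 and H1f1 belong to the replication-dependent clusters, and H1f8 and H1f7 are linker histone genes of the oocyte and testis. H4c6 had 1154 ± 399% in the wild-type and 658 ± 306% in the Neil3-null sample, and H1f1 had 658 ± 30.9% and 730.3 ± 72.0%. H1f8 had 29.5 ± 17.8% and 37.1 ± 27.4%, and H1f7 had 59.3 ± 22.2% and 72.5 ± 22.6%.

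Imprinted genes, which carry methylation on 1 parental copy at their control regions, had starts between the germline list and the middle of all starts. Their 17 measured starts had median percentiles of 24.1 in the wild-type and 21.8 in the Neil3-null sample. None was in either extreme, but 17 starts are too few to tell this from the 3.56% (highest) and 4.47% (lowest) of all starts. Peg3 and Usp29, which share a start region and the same 3 sites, had 83.0 ± 35.9% and 96.9 ± 29.8%. Of their 30 measured bodies 2 (6.67%) were in the highest 5% and none in the lowest, near the 4.3% and 3.86% of all bodies. Igf2, the fetal growth factor gene, had 275 ± 49.6% and 276 ± 42.0%, and Dlk1, a Notch ligand-like gene, had 222 ± 39.3% and 228 ± 40.9%.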

How the data were processed

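HMST-seq signal at CCGG sites was taken from the deposited files of the 2 non-infarcted samples. The authors deposited a normalized signal per site for the HpaII, C+mC (MspI after glucosylation) and MspI libraries; the build is mm10, as stated per the submitters' processing notes. Aligner, scaling and read depth: not given in the sources used here. Counts could not be recovered, so no count test was run and no interval for counting error is given.

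Autosomal sites listed in both samples were used where the mean signal of the MspI and of the C+mC libraries over both samples was at least 10. Signal was summed per gene end (within 1 kb, at least 5 sites), gene body (at least 5 sites) and, added after the data were seen, annotated gene start (at least 3 sites). Gene positions came from RefSeq GRCm38.p6 and strand from its promoter table, which held 16457 of 20665 genes. Ratios were ranked within each sample, and a gene was called extreme where it was in the highest or lowest 5% in both. Standard errors are linearized over the sites of a gene and do not measure variation between animals. With 1 sample per genotype no test was made.

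Named genes are the 8 most extreme by mean percentile at each extreme, leaving out predicted genes, and the 2 highest and 2 lowest members of each list described. Genes were placed in 30 hand-written lists, and lists with at least 5 measured members are plotted. Members and lists were chosen with earlier results of these data known. The ranking was run on simulated gene bodies whose HpaII signal was built from their MspI signal. It could therefore not show whether low MspI sets a rank. Alternatives changed the signal filter, sites per region, window, summary, size of the extreme, which end was used and the denominator. Python 3.11.15, numpy 2.4.6 and pandas 2.3.3 were used.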

Additional observations from a re-analysis of the deposited data

How the results depend on the processing

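The share of genes called in both samples was within 1.5 times its reported value under 96 of the 110 alternatives computed for these shares. Widening the extremes to 10% raised it, by construction, to 7.68% (highest) and 9.16% (lowest) of gene ends by HpaII/MspI, to 5.94% and 6.17% of gene ends by C+mC/MspI, to 8.82% and 8.37% of gene bodies by HpaII/MspI, and to 7.21% and 6.85% of gene bodies by C+mC/MspI. Requiring at least 10 sites left 25 gene ends, of which 0 were highest by HpaII/MspI, 0 highest and 0 lowest by C+mC/MspI. With HpaII over C+mC the highest calls fell to 2.29% of gene ends, 2.84% of gene bodies and 2.25% of gene starts, and the cause was not tested. Of the values for single lists and genes, 1859 moved little, 141 moved further and 9 were counted as reversed. That count is narrower than a change of side, and some of the 141 also crossed the middle. With HpaII over C+mC the housekeeping bodies went from percentiles of 34.6 (wild-type) and 40.3 (Neil3-null) to 72.4. The smooth muscle and pericyte starts went from 67.2 and 62.5 to 26.8. With annotated starts of at least 3 sites, the sarcomere list went to a percentile of 50.7 by HpaII/MspI, Tpm1 to 76.5 by HpaII/MspI and 92.5 by C+mC/MspI, and Ccdc151 to 48.3 by C+mC/MspI (48.7 with at least 5 sites), since another end is then measured. With a window of 2 kb Eef2 went to 35.7 by HpaII/MspI and 28.2 by C+mC/MspI, at an end chosen again by its number of sites. With HpaII over C+mC the starts of Cd68 and Krt8 went to 79.8 and 39.1, and the cause was not tested. No paired analysis was possible because each group holds 1 sample and no groups were compared.

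The depth behind the signal is unknown, most CCGG in promoters with many of them were not listed, and most genes of the large receptor families had too few sites.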
